A study of Mus with 9 samples.

Results

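The 37 genes of the mouse mitochondrial chromosome were followed through 9 bone marrow RNA libraries. They were taken as every gene that the count table places on chromosome MT, 37 of 54532 genes in the table. They comprised 13 messenger RNA (mRNA) genes, 2 ribosomal RNA (rRNA) genes and 22 transfer RNA (tRNA) genes, with 28 genes on the plus strand and 9 on the minus strand (mt-Nd6 and 8 tRNA genes). A read was counted for 33 of them, and 20 passed the filter on low counts that precedes the gene test: 13 mRNAs, 2 rRNAs and 5 tRNAs. The tRNA genes mt-Tf, mt-Ts1, mt-Td and mt-Tk had no read in any library.

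The mitochondrial genome is a small circle present in many copies per cell. It is transcribed from both strands into long precursors, which are cut, largely at the tRNAs, into rRNAs, tRNAs and mRNAs. Its mRNAs encode core subunits of respiratory complexes I, III and IV and of ATP synthase. The remaining subunits, and every protein that copies, transcribes and translates this genome, are encoded in the nucleus and imported.

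All 3 groups started from fetal liver cells taken at embryonic day 12.5 from mice with a conditional AML1-ETO knock-in, in which the leukaemia fusion carries an mCherry tag. The cells were infected with the retrovirus MSCV-IRES-EGFP. The virus was empty (Vec), or carried wild-type CCND2, the cell cycle protein cyclin D2 (CCND2wt), or CCND2 with the change Thr280Ala (CCND2mut). Cells positive for mCherry and GFP were then transplanted, with supportive cells, into lethally irradiated C57BL/6 mice, so every group carries the fusion, a retrovirus and the transplant. The comparisons ask how the marrow RNA differs with each form of CCND2. What drives the knock-in, how old the recipients were at harvest, and whether the sequenced marrow was sorted is not stated in the labels. Recipient and supportive cells may therefore be part of each library.

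Each group had 3 libraries, named here by the replicate number in their labels: Vec 1, 2 and 4, CCND2wt 2, 3 and 4, and CCND2mut 1, 2 and 3. Total counts per library were 15043755 to 17593634. Nothing in the labels says that the libraries of a group came from separate animals, so the p-values reflect the spread among these libraries alone, and that spread may be technical. The CCND2wt libraries lay close together: a chi-square comparison of 2 libraries over all genes gave 6.998 to 17.7 per gene, against 53.3 to 117 among Vec and 72.9 to 148 among CCND2mut libraries. The 3 CCND2wt libraries therefore differed by more than sampling noise, but they were also summed and used as 1 sample in a separate fit. Vec 1 had high haemoglobin counts (1.51% of all counts, against 0.00271% to 0.356% in the other 8 libraries). Ccnd2, the gene named in the labels, was at 76.2, 79.0 and 86.2 CPM (counts scaled to library size) in the Vec libraries, at 7.30, 9.29 and 11.1 in the libraries labelled CCND2wt, and at 12.6, 58.2 and 51.1 in those labelled CCND2mut. The Ccnd2 counts thus do not show the added CCND2 that the labels name, and group names below mean the libraries labelled so. The species of the cloned sequence is not given in the sources used here, so what part of it these counts could hold cannot be told. Vec 1 also had the highest immunoglobulin share (0.588% of all counts, against 0.00473% to 0.0441% in the other 8). Summed markers of stem and progenitor cells and of mast cells and basophils were at 497 to 2721 and 1580 to 14365 CPM in the 9 libraries, while those of T and NK cells were at 22.1 to 56.7 CPM.

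Levels along the chromosome were uneven, and the least counted mRNAs lay together. Levels are given as CPM scaled by TMM factors, and between genes per kilobase of gene length. Averaged over the 9 libraries, mt-Co1 (positions 5328 to 6872, the catalytic subunit of complex IV) stood highest, at 3732 CPM per kb. It was followed by mt-Cytb (complex III) at 1580 and mt-Nd1 (complex I) at 1454 CPM per kb. The other complex I genes mt-Nd6, mt-Nd5, mt-Nd4 and mt-Nd2 were at 639, 565, 565 and 553 CPM per kb. The rRNAs mt-Rnr1 (positions 70 to 1024) and mt-Rnr2 (1094 to 2675), the RNAs of the small and large ribosomal subunit, were at 188 and 183 CPM per kb. The other 6 mRNAs, mt-Co2, mt-Atp6, mt-Co3, mt-Nd3, mt-Nd4l and mt-Atp8, were at 48.0, 28.5, 21.4, 17.1, 11.0 and 2.79 CPM per kb. Together they made up 26.3% of the mRNA gene length and 0.669% of the mRNA counts. Among tRNAs, mt-Tp, mt-Tc and mt-Tn were at 231, 113 and 70.7 CPM per kb.

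**Figure D1:**
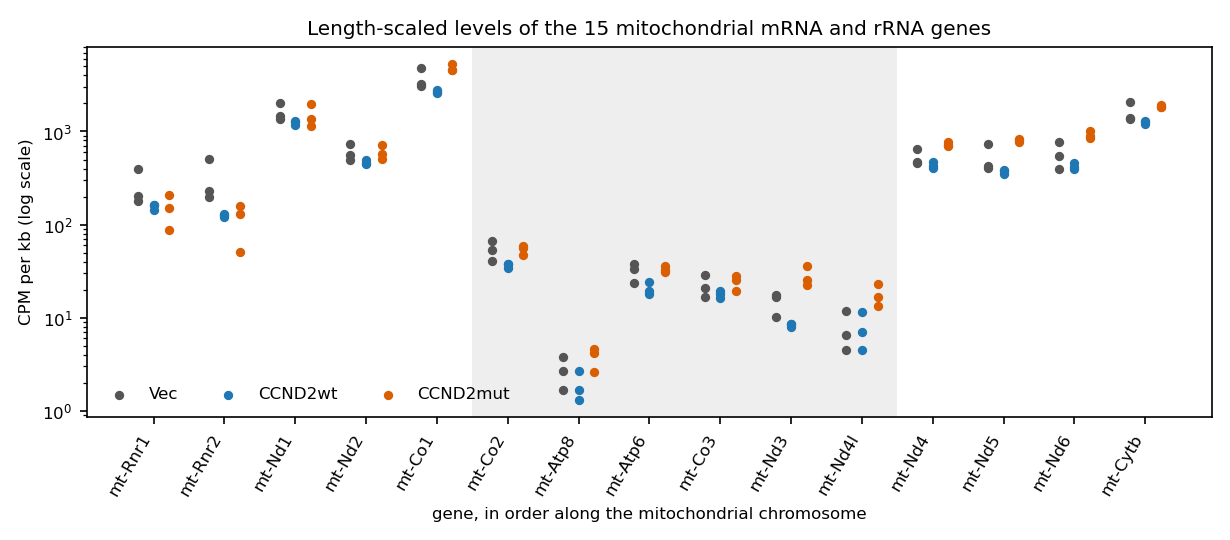
Level of each mitochondrial mRNA and rRNA gene in gene order, in CPM per kilobase on a log axis, for each library of the 3 groups. The tRNA genes are not drawn. The grey band marks the 6 mRNAs that lie inside the stretch copied on chromosome 1, and they sit between 2.79 and 48.0 CPM per kb on average, below the 553 to 3732 of the other 7 mRNAs.

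These 6 genes lie wholly inside a stretch that has a copy in the nuclear genome. A run of 7 pseudogenes on the minus strand of chromosome 1 (24611535 to 24616197, mm10) matched positions 6381 to 11043 of chromosome MT in order and length. Gm28661, Gm10925, Gm28437, Gm28438 and Gm10222 covered 99.6%, 99.6%, 99.9%, 99.1% and 99% of mt-Co2, mt-Atp6, mt-Co3, mt-Nd3 and mt-Nd4l. Gm29216 covered 31.8% of mt-Co1 and Gm28439 63.6% of mt-Nd4. mt-Atp8 lies within the copied stretch with no annotated pseudogene of its own. The pairing rests on positions only, and sequences of both were not used here. How the counting treated reads that fit more than 1 place is unknown here, so the levels of these genes, and of the copied parts of mt-Co1 and mt-Nd4, are uncertain. Gm28661 held 506, 550 and 375 counts in Vec, 412, 449 and 450 in CCND2wt, and 413, 569 and 493 in CCND2mut. All 7 pseudogenes together held 1058 to 1727 counts per library. The counts of Gm28661, Gm10925 and Gm28437 were at the scale of mt-Co2, mt-Atp6 and mt-Co3. Gm28438 held 7 to 27 counts, against 52 to 189 for mt-Nd3, and Gm29216 held 129 to 240, against 72041 to 123256 for mt-Co1. The whole chromosome held 162565 to 251868 counts. Genes that overlap are uncertain too: mt-Atp8 shares 43 bases with mt-Atp6, mt-Nd4l shares 7 with mt-Nd4, and mt-Nd5 shares 14 with mt-Nd6 on the opposite strand. The strand setting of the counting is not given in the sources used here, so reads from mt-Nd6 and from RNA antisense to it may be mixed.

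The mitochondrial chromosome took a smaller share of all counts in CCND2wt than in either other group. The share was 1.07%, 1.55% and 1.05% in Vec, 0.969%, 0.997% and 0.977% in CCND2wt, and 1.47%, 1.39% and 1.43% in CCND2mut. CCND2wt lay below every library of both other groups, while Vec 2 exceeded all CCND2mut libraries and the other 2 Vec libraries lay below them. The means were 1.22 ± 0.281%, 0.981 ± 0.0144% and 1.43 ± 0.0404% (SD, n = 3 each). The difference was -0.240 percentage points for CCND2wt against Vec, 0.210 for CCND2mut against Vec and 0.450 for CCND2mut against CCND2wt. Two-sided exact permutation tests gave p = 0.1, 0.4 and 0.1 (adjusted over the 3 comparisons, 0.15, 0.4 and 0.15). With 3 libraries a group, 0.1 is the smallest p this test can give. Without Vec 2 the differences from Vec were -0.0781 points for CCND2wt and 0.372 points for CCND2mut, so that this library decides much of their size. The widest 95% Wilson interval of a library spans 0.0122 points and covers counting error only. In marrow, more or fewer cells of a type and more or less of this RNA per cell cannot be told apart.

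**Figure D2:**
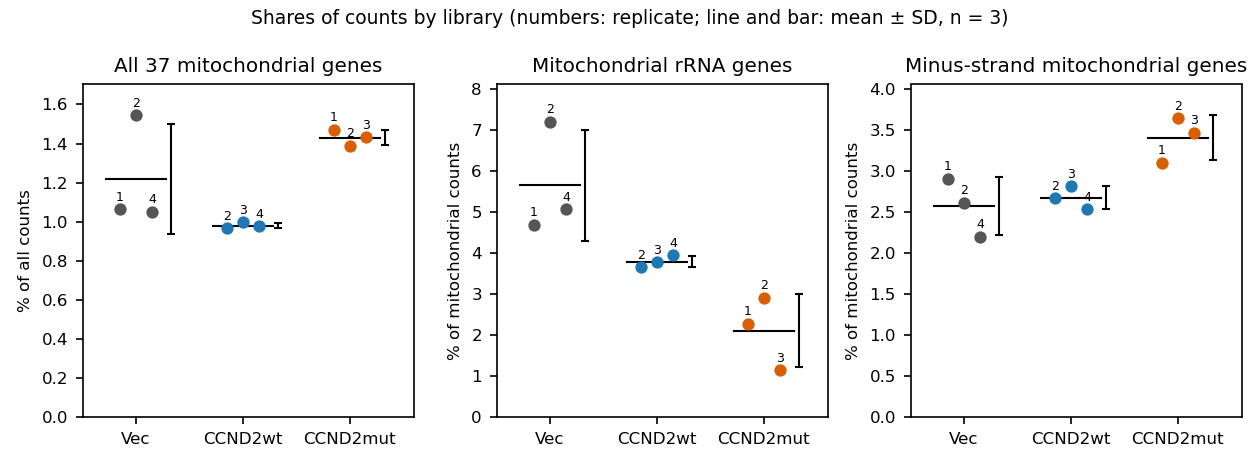
Share of all counts on chromosome MT, and shares of the mitochondrial counts held by rRNA and by minus-strand genes, in percent for each library. The CCND2wt libraries are lowest for the chromosome (0.969% to 0.997%), and the rRNA share steps down from Vec to CCND2wt to CCND2mut with no overlap between groups.

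Gene by gene, more members were called between the CCND2 groups than against Vec. In CCND2mut against CCND2wt, 12 of 20 tested genes were higher and 0 lower (edgeR quasi-likelihood test, adjusted p under 0.05 over all 15660 tested genes), where 47% of all tested genes were called (23.2% higher and 23.8% lower). The 12 were 8 of 13 mRNAs and 4 of 5 tRNAs, and the median log2 fold change was 0.75 over the 13 mRNAs, against 0.02 over all tested genes. In CCND2mut against Vec, 5 genes were higher and 1 lower, where 51.8% of all genes were called (24.9% higher, 26.9% lower). That is a smaller share of members than of genes at large. The median over the 13 mRNAs was 0.39, against -0.03 over all tested genes, and 0.27 to 0.42 when each library was left out in turn. In CCND2wt against Vec, 0 genes were higher and 2 lower, both tRNAs, where 18.8% of all genes were called (9.71% higher, 9.05% lower). No mRNA was called there in edgeR (0 of 13, with 5 at an unadjusted p under 0.05). DESeq2 called 6 of 20 members lower, where it called 27.5% of all genes. These were the 2 tRNAs, mt-Rnr2 and the mRNAs mt-Co2, mt-Atp6 and mt-Nd3, which lie in the stretch copied on chromosome 1. Of the 13 mRNAs, 12 had a log2 fold change below 0, with a median of -0.41 against -0.04 over all tested genes. That median was -0.16 without Vec 2 and -0.47 to -0.34 without any other 1 library. Since both comparisons with Vec use the same 3 Vec libraries, their values are not independent.

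By overlap, 15 of 20 members in CCND2mut lay above every CCND2wt library and 0 below, where 63.1% of all tested genes did not overlap (30.9% above, 32.2% below). Against Vec, CCND2mut lay above for 7 members and below for 1 (27.4% and 29.2% of all tested genes, 56.7% in either direction). CCND2wt lay below Vec for 11 members and above for 0 (23.7% and 24.6%, 48.3% in either direction). Between 8 and 13 members were called in CCND2mut against CCND2wt when 1 library at a time was left out. Of all genes, 34.6% to 48.4% were called in these fits. The count was 8 without CCND2wt 2 or CCND2wt 4, where 34.6% and 35.5% of all genes were called. The genes mt-Co1, mt-Nd3, mt-Nd4, mt-Nd5, mt-Nd6, mt-Tc and mt-Tl1 were called in all 9 such fits. With the CCND2wt libraries summed to 1 sample, 0 of 25 tested members were called in that comparison in edgeR (lowest adjusted p = 0.0618), where 13.4% of all genes still were. The median over the 13 mRNAs was 0.73 in that fit. The same fit called 1 member in CCND2mut against Vec and 0 in CCND2wt against Vec, where 0.22% of all genes were called. In CCND2mut against Vec the count was 2 without Vec 1 (50.6% of all genes called) and 8 without Vec 2 (45.1%). It was 3 without Vec 4, CCND2mut 1 or CCND2mut 3 (44.4%, 49.5% and 43.9%). For CCND2wt against Vec it was 0 without Vec 2, CCND2wt 3 or CCND2wt 4 (13.3%, 7.27% and 6.21% of all genes called). It was 1 without Vec 4, CCND2wt 2 or CCND2mut 2 (12.5%, 6.38% and 20.8%).

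**Figure D3:**
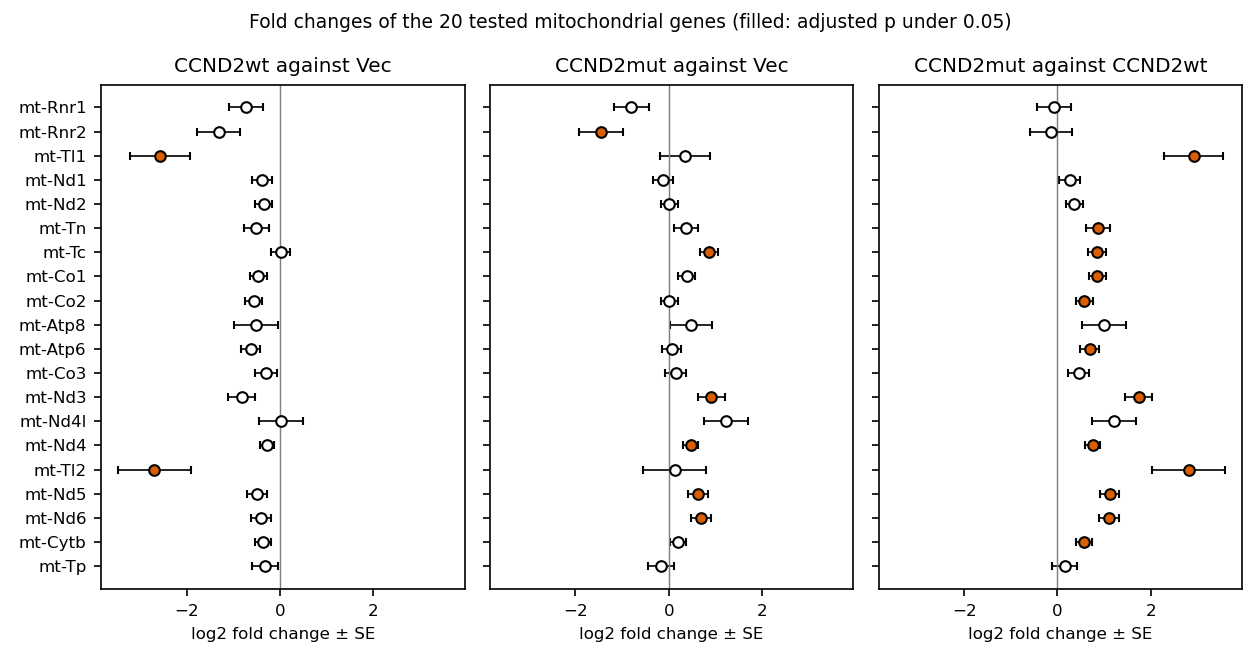
Log2 fold change of the 20 tested mitochondrial genes in each comparison, with bars of 1 standard error and filled points where the edgeR adjusted p is under 0.05. All 13 mRNAs are above 0 in CCND2mut against CCND2wt, while the 2 rRNAs are below 0 in all 3 comparisons (-1.45 to -0.07). In CCND2mut against CCND2wt the rRNA values are close to 0 (-0.14 and -0.07) and neither is called.

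Of the 2 rRNAs, the large subunit rRNA fell in CCND2mut against Vec. mt-Rnr2, the large subunit rRNA, was at 312, 804 and 360 CPM in Vec, 192, 205 and 199 in CCND2wt, and 205, 253 and 80.4 in CCND2mut. Every Vec library was above every other library, with Vec 2 far above the other 2. It fell by 1.45 on the log2 scale in CCND2mut against Vec (SE 0.464, edgeR adjusted p = 0.0291). The call was lost without Vec 2, CCND2mut 1 or CCND2mut 3 (adjusted p up to 0.106 and log2 fold changes of -1.797 to -0.91 over the fits that left out 1 library). Between CCND2wt and Vec its log2 fold change was -1.31 (edgeR adjusted p = 0.0817), a difference called by DESeq2 (adjusted p = 0.0204). It was -0.74 without Vec 2 (edgeR adjusted p = 0.268). mt-Rnr1, the small subunit rRNA, was at 191, 381 and 171 CPM in Vec, 138, 156 and 154 in CCND2wt, and 143, 200.02 and 84.2 in CCND2mut. CCND2wt lay below all Vec libraries and CCND2mut overlapped both groups. Its log2 fold changes against Vec were -0.73 in CCND2wt and -0.80 in CCND2mut (edgeR adjusted p = 0.191 and 0.1). Without Vec 2 these were -0.26 and -0.35, and without CCND2mut 3 the latter was -0.52. In CCND2mut against CCND2wt neither rRNA was called. The log2 fold changes were -0.14 for mt-Rnr2 and -0.07 for mt-Rnr1 (edgeR adjusted p = 0.818 and 0.894). Without CCND2mut 3 they were 0.213 and 0.205.

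As a share of the mitochondrial counts, the rRNAs separated all 3 groups. They held 4.69%, 7.20% and 5.06% in Vec, 3.65%, 3.78% and 3.94% in CCND2wt, and 2.28%, 2.91% and 1.15% in CCND2mut. No library of a group overlapped with another group. The mRNA counts are part of what this share is divided by. The levels of both rRNAs overlapped between CCND2wt and CCND2mut. The means were 5.65 ± 1.35%, 3.79 ± 0.143% and 2.11 ± 0.893% (SD, n = 3), and each of the 3 differences had p = 0.1 in a two-sided exact permutation test (0.15 adjusted over 12 shares and comparisons), the smallest possible. The share in CCND2mut remained lower when each library was left out in turn, with a difference of -4.02 to -2.76 points from Vec and -2.08 to -1.20 points from CCND2wt. The difference between CCND2wt and Vec was -1.09 points without Vec 2, against -1.86 with all libraries. The proportion between the 2 rRNAs differed too. The counts of mt-Rnr2 per count of mt-Rnr1 were 1.63, 2.11 and 2.10 in Vec, 1.39, 1.31 and 1.30 in CCND2wt, and 1.44, 1.27 and 0.955 in CCND2mut. All Vec libraries lay above the others, and the 2 CCND2 groups overlapped. Whether poly(A) RNA was selected or rRNA removed when the libraries were made is not stated in the labels, and what part that step had in the rRNA values was not tested. The nuclear RNAs listed as lacking a poly(A) tail were near 0 in 8 libraries (summed levels of 0.991 to 2.85 CPM) and at 31.6 CPM in CCND2mut 2, and Rmrp was at 0 in all.

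Among the 7 complex I genes, which encode the membrane arm of the NADH dehydrogenase, mt-Nd3, mt-Nd4, mt-Nd5 and mt-Nd6 rose in CCND2mut against both other groups. The calls against CCND2wt were kept in all 9 fits that left out 1 library, while each call against Vec was lost in some of them. mt-Nd5, a proton-pumping subunit, was at 785, 1324 and 744 CPM in Vec, 692, 698 and 637 in CCND2wt, and 1477, 1526 and 1394 in CCND2mut. All CCND2mut libraries lay above all others, and all CCND2wt libraries below all Vec libraries. It rose by 1.12 on the log2 scale against CCND2wt (SE 0.213, edgeR adjusted p = 0.00284) and by 0.62 against Vec (SE 0.211, edgeR adjusted p = 0.0348). The second call was kept in only 1 of the 9 fits that left out a library, the fit without Vec 2 (adjusted p of 0.000741 to 0.112 over the 9).

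mt-Nd6, the only mRNA on the minus strand (13552 to 14070), was at 282, 396 and 206 CPM in Vec, 218, 241 and 206 in CCND2wt, and 437, 531 and 468 in CCND2mut. CCND2mut again lay above every other library, and Vec and CCND2wt overlapped. It rose by 1.11 against CCND2wt (SE 0.218, edgeR adjusted p = 0.0033) and by 0.70 against Vec (SE 0.216, edgeR adjusted p = 0.0246). The call against Vec was lost without Vec 1, Vec 4 or CCND2mut 2 (adjusted p up to 0.0678). mt-Nd4, also a pumping subunit, was at 643, 904 and 639 CPM in Vec, 593, 642 and 561 in CCND2wt, and 1071, 962 and 994 in CCND2mut. It rose by 0.75 against CCND2wt (SE 0.155, edgeR adjusted p = 0.00417) and by 0.47 against Vec (SE 0.154, edgeR adjusted p = 0.0314). The CCND2mut libraries lay above all others, and the call against Vec was kept in 3 of the 9 fits that left out 1 library (adjusted p up to 0.106).

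mt-Nd3, a short core subunit inside the copied stretch, was at 3.56, 5.84 and 6.09 CPM in Vec, 2.75, 3.002 and 2.97 in CCND2wt, and 8.80, 12.6 and 7.84 in CCND2mut. The 3 groups did not overlap. It rose by 1.74 against CCND2wt (SE 0.295, edgeR adjusted p = 0.0016) and by 0.92 against Vec (SE 0.288, edgeR adjusted p = 0.0263). The call against Vec was lost without Vec 1 or CCND2mut 2 (adjusted p up to 0.088). Its neighbour mt-Nd4l was at 1.93, 3.46 and 1.35 CPM in Vec, 1.32, 3.40 and 2.09 in CCND2wt, and 6.80, 5.01 and 3.99 in CCND2mut. CCND2mut lay above all other libraries, but with log2 fold changes of 1.23 against Vec and 1.21 against CCND2wt it was not called in edgeR (adjusted p = 0.0531 and 0.0589). DESeq2 called both (adjusted p = 0.0279 and 0.0322).

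The complex I genes nearest the rRNAs were not called in any comparison. mt-Nd1, also a membrane arm subunit, was at 1313, 1949 and 1398 CPM in Vec, 1129, 1215 and 1228 in CCND2wt, and 1872, 1102 and 1315 in CCND2mut. CCND2mut 2 was its lowest library of all and CCND2mut 1 its second highest. Its log2 fold changes were -0.38, -0.12 and 0.26 in the order CCND2wt against Vec, CCND2mut against Vec and CCND2mut against CCND2wt (edgeR adjusted p = 0.247, 0.67 and 0.354). mt-Nd2 was at 507, 764 and 577 CPM in Vec, 466, 506 and 480 in CCND2wt, and 744, 523 and 599.54 in CCND2mut. CCND2mut lay above CCND2wt without overlap and overlapped Vec, and its log2 fold change against CCND2wt was 0.36 (edgeR adjusted p = 0.134).

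In complex III, mt-Cytb, which encodes cytochrome b, was at 1600, 2395 and 1571 CPM in Vec, 1378, 1490 and 1440 in CCND2wt, and 2088, 2100 and 2210 in CCND2mut. CCND2wt lay below every other library, and CCND2mut fell between Vec 2 and the other 2 Vec libraries. It rose by 0.57 in CCND2mut against CCND2wt (SE 0.17, edgeR adjusted p = 0.0227). The call was lost without any 1 of the CCND2wt libraries or CCND2mut 3 (adjusted p up to 0.0852). Against Vec the log2 fold change was 0.20 in CCND2mut (edgeR adjusted p = 0.345), and it was called without Vec 2 (0.42, adjusted p = 0.0132).

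In complex IV, mt-Co1 was at 4981, 7402 and 4726 CPM in Vec, 4135, 4294 and 3965 in CCND2wt, and 7127, 8229 and 7041 in CCND2mut. CCND2wt lay below every Vec library, and only Vec 2 reached into the CCND2mut range. It rose by 0.85 in CCND2mut against CCND2wt (SE 0.182, edgeR adjusted p = 0.00498). Against Vec it was at 0.39 in CCND2mut (edgeR adjusted p = 0.102), and called without Vec 2 (0.61, adjusted p = 0.00671). mt-Co2, the subunit that takes electrons from cytochrome c, was at 36.1, 46.0 and 27.9 CPM in Vec, 23.5, 25.5 and 25.5 in CCND2wt, and 32.3, 38.7 and 39.9 in CCND2mut. It rose by 0.57 in CCND2mut against CCND2wt (SE 0.183, edgeR adjusted p = 0.0311), with no overlap between these groups. That call was lost when the counts of its pseudogene Gm28661 were added, and without any 1 of the CCND2wt libraries, CCND2mut 2 or CCND2mut 3 (adjusted p up to 0.106). mt-Co3, the third core subunit, was at 16.4, 22.4 and 12.9 CPM in Vec, 12.7, 15.1 and 14.2 in CCND2wt, and 15.2, 22.1 and 20.1 in CCND2mut. It was not called (log2 fold change 0.45 against CCND2wt, edgeR adjusted p = 0.138), although its CCND2mut libraries lay just above those of CCND2wt.

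For ATP synthase, mt-Atp6, which forms part of the proton channel, was at 16.1, 26.01 and 22.7 CPM in Vec, 13.2, 16.5 and 12.2 in CCND2wt, and 21.2, 24.6 and 21.98 in CCND2mut. CCND2mut lay above all CCND2wt libraries and within the range of Vec. It rose by 0.69 against CCND2wt (SE 0.205, edgeR adjusted p = 0.0224), a call lost without CCND2wt 2, CCND2wt 4 or CCND2mut 2 (adjusted p up to 0.0902). mt-Atp8, an accessory subunit of the same enzyme, was at 0.265 to 0.930 CPM in the 9 libraries and was not called (log2 fold change 0.99 in CCND2mut against CCND2wt, edgeR adjusted p = 0.113).

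The tRNA counts were few, at 386 to 690 per library over all 22 genes. Reads over a tRNA gene can also come from precursors that still hold it. mt-Tc, for cysteine, was at 5.91, 6.38 and 5.19 CPM in Vec, 5.50, 6.80 and 5.34 in CCND2wt, and 11.1, 10.48 and 10.2 in CCND2mut. Vec and CCND2wt overlapped, and CCND2mut lay well above both. It rose by 0.86 against Vec (SE 0.198, edgeR adjusted p = 0.00665) and by 0.85 against CCND2wt (SE 0.198, edgeR adjusted p = 0.00763), in each of the 9 fits that left out 1 library. mt-Tn, for asparagine, was at 3.68, 5.91 and 5.51 CPM in Vec, 3.07, 4.02 and 3.52 in CCND2wt, and 6.19, 5.94 and 7.31 in CCND2mut. It rose by 0.87 against CCND2wt (SE 0.263, edgeR adjusted p = 0.0243), a call lost without any 1 of the CCND2wt libraries or CCND2mut 3 (adjusted p up to 0.101). Both genes lie on the minus strand between mt-Nd2 and mt-Co1.

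The leucine tRNAs had the fewest counts in CCND2wt. mt-Tl1, which follows mt-Rnr2, had 7, 11 and 19 counts in Vec, 3, 2 and 2 in CCND2wt, and 28, 11 and 9 in CCND2mut. mt-Tl2, which precedes mt-Nd5, had 22, 17 and 18 counts in Vec, 8, 2 and 0 in CCND2wt, and 15, 30 and 16 in CCND2mut. Neither gene's CCND2wt libraries overlapped with the other groups. Against Vec, mt-Tl1 in CCND2wt fell by 2.57 (SE 0.645, edgeR adjusted p = 0.0276) and mt-Tl2 by 2.69 (SE 0.787, edgeR adjusted p = 0.0455). These calls were kept in 4 and 2 of the 9 fits that left out 1 library (adjusted p up to 0.109 and 0.158). In CCND2mut against CCND2wt they rose by 2.92 (SE 0.636, edgeR adjusted p = 0.00556) and 2.82 (SE 0.785, edgeR adjusted p = 0.0173). The second of these was lost without CCND2wt 3 or CCND2mut 2 (adjusted p up to 0.0767). mt-Tp, for proline, was the most counted tRNA, at 18.2, 21.3 and 12.2 CPM in Vec, 13.5, 16.2 and 11.7 in CCND2wt, and 18.0, 17.4 and 10.6 in CCND2mut. The groups overlapped, and it was not called. As a class the tRNAs held 0.222% to 0.301% of the mitochondrial counts, with overlap in all 3 comparisons.

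Within the mRNA counts, which do not depend on the scaling to nuclear genes, CCND2mut differed from the other groups by gene. mt-Nd5 made up 7.70%, 8.69% and 7.49% of the 13 mRNAs in Vec, 7.99%, 7.62% and 7.42% in CCND2wt, and 9.91%, 10.1% and 9.87% in CCND2mut. mt-Nd1 made up 12.9%, 12.8% and 14.1% in Vec, 13.03%, 13.3% and 14.3% in CCND2wt, and 12.6%, 7.31% and 9.32% in CCND2mut. The CCND2mut libraries thus lay above all others for mt-Nd5 and below all others for mt-Nd1, with CCND2mut 1 close to the rest for the latter. mt-Nd6 was above all others too, at 2.93%, 3.53% and 3.31% in CCND2mut against 2.08% to 2.77% elsewhere. mt-Cytb was below all others in CCND2mut (14.0%, 13.9% and 15.7%), by a margin that is small for CCND2mut 3, since Vec lay at 15.7% to 15.8%. mt-Co1 held 46.2% to 48.9% in Vec and CCND2wt, and 47.8%, 54.6% and 49.9% in CCND2mut. The mt-Nd5 counts per count of mt-Nd1 were 0.598, 0.679 and 0.532 in Vec, 0.613, 0.574 and 0.518 in CCND2wt, and 0.789, 1.38 and 1.06 in CCND2mut.

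**Figure D4:**
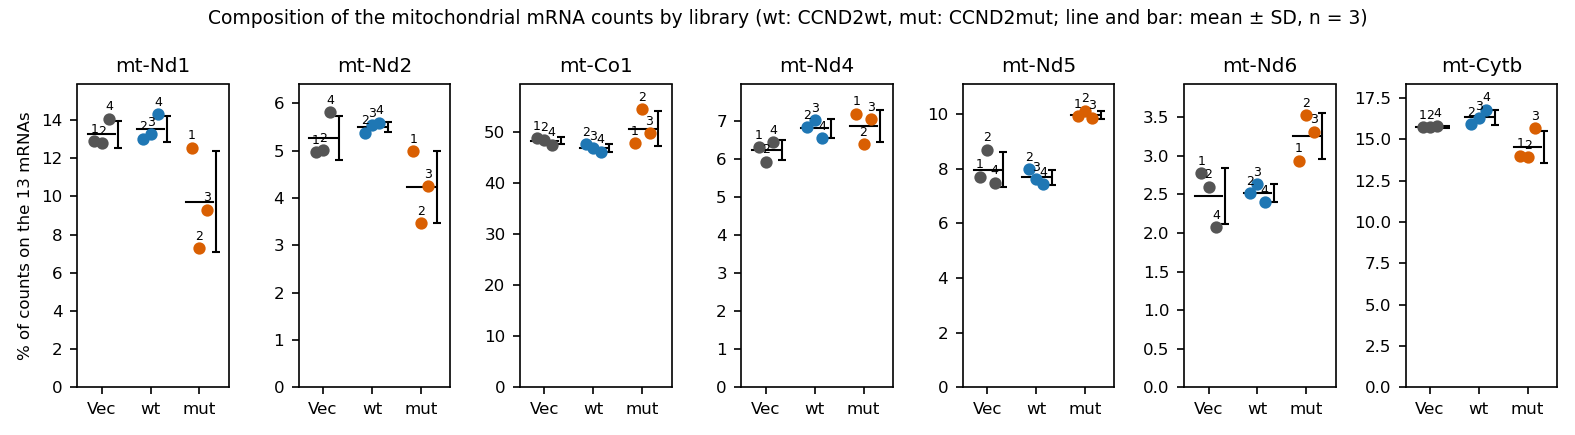
Share of each mRNA among the 13 mitochondrial mRNAs, in percent for each library, in gene order for the 7 most counted mRNAs. In CCND2mut, mt-Nd5 (9.87% to 10.1%) and mt-Nd6 lie above the other groups and mt-Nd1 (7.31% to 12.6%) below them.

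The minus-strand genes, of which mt-Nd6 gives most counts, held 2.903%, 2.61% and 2.20% of the mitochondrial counts in Vec, 2.67%, 2.81% and 2.53% in CCND2wt, and 3.101%, 3.64% and 3.46% in CCND2mut. CCND2mut lay above both other groups, which overlapped. The means were 2.57 ± 0.354%, 2.67 ± 0.141% and 3.40 ± 0.275% (SD, n = 3). CCND2mut differed from each other group with p = 0.1 in two-sided exact permutation tests (0.15 adjusted), and CCND2wt from Vec with p = 0.8 (0.873 adjusted).

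The nuclear genes for the same complexes were compared beside them. Of 38 listed nuclear subunits of complexes I, III and IV and ATP synthase, 34 rose and 1 fell in CCND2mut against Vec, with a median log2 fold change of 0.83, where 24.9% of all tested genes were called higher and 26.9% lower. In CCND2mut against CCND2wt 25 rose and 1 fell (median 0.42, with 23.2% and 23.8% of all tested genes). In CCND2wt against Vec 14 rose and 0 fell (median 0.37, with 9.71% and 9.05%). The 13 mitochondrial mRNAs had medians of 0.39, 0.75 and -0.41 in the same order, and the difference between the nuclear and mitochondrial genes was not tested. Examples are Cox6c, a small complex IV subunit, which rose by 1.60 in CCND2mut against Vec (SE 0.111, edgeR adjusted p = 2.85e-05), and Uqcrq, a small complex III subunit, which rose by 2.07 (SE 0.184, edgeR adjusted p = 7.46e-05). Cyc1, the cytochrome c1 of complex III, rose by 1.38 (SE 0.118, edgeR adjusted p = 6.42e-05). Ndufs3, a complex I subunit, was the 1 that fell, by 0.77 (SE 0.126, edgeR adjusted p = 0.00127). In CCND2wt, where 0 of 13 mitochondrial mRNAs rose, Cox6a1 of complex IV rose by 0.64 (SE 0.112, edgeR adjusted p = 0.00705) and Uqcrb of complex III by 0.57 (SE 0.0981, edgeR adjusted p = 0.00697). By list, 6 of 10 complex IV, 6 of 9 ATP synthase, 2 of 9 complex III and 0 of 10 complex I genes rose in CCND2wt against Vec. In CCND2mut against Vec these were 10, 9, 8 and 7.

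The ratio of mitochondrial to nuclear counts was lower in both CCND2 groups. Counts of the 13 mRNAs per count of the 38 nuclear subunits were 2.40, 3.93 and 2.38 in Vec, 1.71, 1.76 and 1.65 in CCND2wt, and 1.98, 2.29 and 2.02 in CCND2mut. No 2 groups overlapped, with Vec highest and CCND2wt lowest, also when Vec 2 is set aside. For complex IV the ratios were 5.50, 8.93 and 5.81 in Vec, 3.86, 3.79 and 3.49 in CCND2wt, and 3.86, 5.14 and 4.19 in CCND2mut, so that both CCND2 groups lay below Vec. For complex III they were 2.38, 3.87 and 2.47, then 1.77, 1.87 and 1.83, then 1.71, 1.87 and 1.85, also below Vec. For complex I only CCND2wt lay below Vec: 6.30, 11.3 and 6.29 in Vec, 4.98, 5.22 and 4.80 in CCND2wt, and 6.33, 6.77 and 6.39 in CCND2mut. For ATP synthase, whose 2 mitochondrial genes lie in the copied stretch, the ratios were 0.0049 to 0.0135 and both CCND2 groups lay below the Vec range. The margin was very small for CCND2mut 2, at 0.00795 against 0.00799 in Vec 1. These ratios compare counts that share a library and were not tested.

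**Figure D5:**
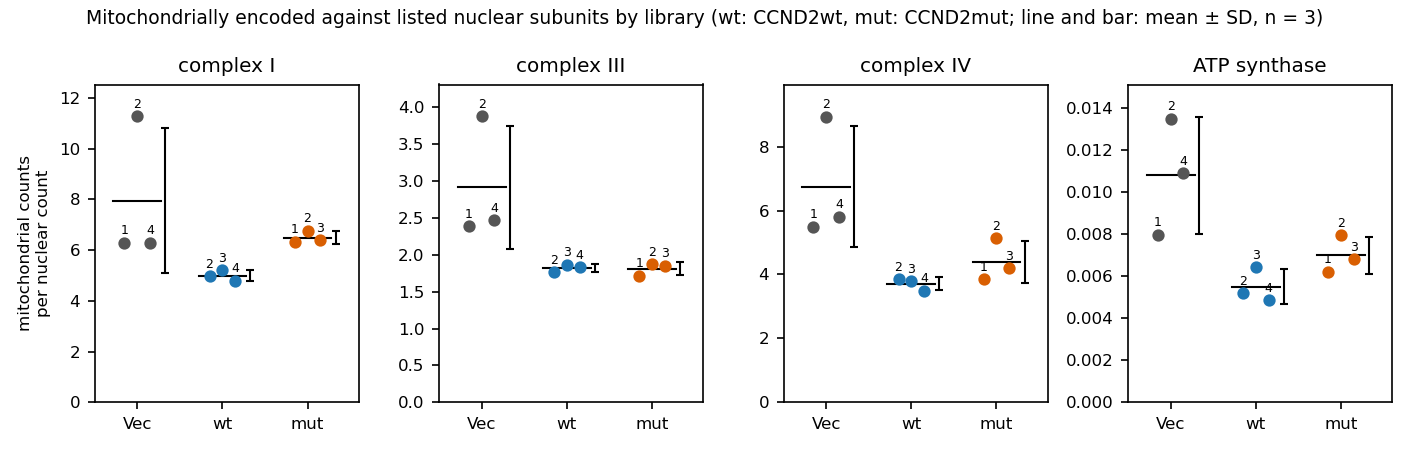
Counts of the mitochondrially encoded mRNAs per count of the listed nuclear subunits of the same complex, for each library. For complexes III and IV both CCND2 groups lie below all Vec libraries, while for complex I the CCND2mut libraries (6.33 to 6.77) lie above CCND2wt and between the Vec values.

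Genes that act on the mitochondrial genome were mixed. Of 89 tested genes in 6 lists, 5 rose and 7 fell in CCND2wt against Vec (median log2 fold change 0.10), where 9.71% of all tested genes were called higher and 9.05% lower. In CCND2mut against Vec 23 rose and 13 fell (median 0.18, with 24.9% and 26.9% of all tested genes), and in CCND2mut against CCND2wt 15 rose and 13 fell (0.13, with 23.2% and 23.8%). These counts were near or below the shares of genes at large, so that they are no result about these lists. Of 10 transcription genes, 0 were called in CCND2wt against Vec and 2 rose in CCND2mut against Vec. These were Tfb1m, a methyltransferase of the small rRNA (0.76, SE 0.232, edgeR adjusted p = 0.0231), and Tefm, an elongation factor (1.00, SE 0.306, edgeR adjusted p = 0.0238). Both calls were lost without Vec 4, CCND2mut 1 or CCND2mut 3, and that of Tefm also without Vec 2 (adjusted p up to 0.0747 and 0.06002). Of 20 RNA processing genes, 7 rose and 1 fell in CCND2mut against Vec. Lrpprc, which stabilises mitochondrial mRNAs, rose by 0.75 (SE 0.129, edgeR adjusted p = 0.00156), and Trnt1, which adds the tRNA end CCA, rose by 1.10 (SE 0.157, edgeR adjusted p = 0.000624). Of 13 replication genes, 4 rose and 4 fell there. Tk2, a mitochondrial nucleoside kinase, fell by 1.805 (SE 0.192, edgeR adjusted p = 0.000161) and Ssbp1, which binds single-stranded mitochondrial DNA, rose by 0.77 (SE 0.114, edgeR adjusted p = 0.000741). Polg, the replicative polymerase, fell by 0.87 against CCND2wt (SE 0.183, edgeR adjusted p = 0.00473).

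In CCND2wt against Vec, 9.71% of all tested genes were called higher and 9.05% lower. In CCND2mut against Vec these shares were 24.9% and 26.9%. Of 16 rRNA and tRNA modification genes, 0 rose and 4 fell in CCND2wt against Vec. Cdk5rap1, which modifies tRNAs, fell by 1.504 there (SE 0.22, edgeR adjusted p = 0.00357) and rose by 2.31 in CCND2mut against CCND2wt (SE 0.225, edgeR adjusted p = 0.00011). Nsun4, which methylates the small rRNA, fell by 0.76 against Vec in CCND2wt libraries (SE 0.169, edgeR adjusted p = 0.0174) and by 1.12 in CCND2mut against Vec (SE 0.171, edgeR adjusted p = 0.000864). The first of these calls was lost without Vec 2, Vec 4 or any 1 of the CCND2wt libraries (adjusted p up to 0.0861), and the second was kept in all 9 such fits. Translation factors gave 0 calls of 13 in CCND2wt against Vec and 2 higher and 3 lower in CCND2mut against Vec, where Gfm1, an elongation factor, rose by 0.95 (SE 0.163, edgeR adjusted p = 0.0016). Of 17 aminoacyl-tRNA synthetases, 5 rose and 3 fell in CCND2mut against Vec. Cars2, which charges mt-Tc with cysteine, fell by 1.17 (SE 0.179, edgeR adjusted p = 0.000887). Regulators of mitochondrial biogenesis also split. Gabpa, a subunit of the factor NRF-2, rose by 0.62 in CCND2mut against Vec (SE 0.117, edgeR adjusted p = 0.00255), while its partner Gabpb1 fell by 1.00 (SE 0.224, edgeR adjusted p = 0.0058).

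Most of the listed nuclear genes for matrix and outer membrane proteins rose in CCND2mut. Of 12 such genes, 10 rose and 0 fell against Vec (median 0.87, against -0.03 over all tested genes). Of all tested genes, 24.9% were called higher and 26.9% lower there. Against CCND2wt 9 rose and 0 fell (median 0.74, against 0.02), with 23.2% and 23.8% of all tested genes. Cs, citrate synthase, rose by 1.07 against Vec (SE 0.128, edgeR adjusted p = 0.000275), and Tomm40, the import pore, rose by 1.14 against CCND2wt (SE 0.156, edgeR adjusted p = 0.000537). Between CCND2wt and Vec 1 rose and 0 fell (median 0.13, against -0.04), with 9.71% and 9.05% of all tested genes.

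Cell type markers differed between the same groups. Of all tested genes, 24.9% were called higher and 26.9% lower in CCND2mut against Vec. These shares were 23.2% and 23.8% in CCND2mut against CCND2wt, and 9.71% and 9.05% in CCND2wt against Vec. Summed levels of 5 promyelocyte granule genes were 1360 to 1893 CPM in Vec, 2503 to 2687 in CCND2wt and 4999 to 10474 in CCND2mut. In CCND2mut 5 of 5 rose against Vec and 4 of 5 against CCND2wt. In CCND2wt against Vec the sum was higher, but 1 gene rose, 1 fell and the median log2 fold change was -1.86. The 10 maturing neutrophil genes summed to 482 to 14362, 140 to 251 and 3113 to 18941 CPM. In CCND2mut 7 of 10 rose against CCND2wt and 1 of 10 against Vec. The 9 monocyte and macrophage genes summed to 143 to 1644, 77.8 to 88.4 and 3081 to 4710 CPM. In CCND2mut 4 of 8 tested were higher than in CCND2wt and 2 of 8 higher than in Vec. The 8 stem and progenitor genes summed to 1838 to 2488, 2637 to 2721 and 497 to 1316 CPM. In CCND2mut 6 of 8 were lower than in Vec and 5 of 8 lower than in CCND2wt. The 10 erythroid genes summed to 145 to 17096, 1086 to 1303 and 35.7 to 300.4 CPM. In CCND2mut 8 of 10 were lower than in Vec, and 0 were called against CCND2wt. The 8 B cell genes summed to 45.0 to 304, 21.1 to 24.2 and 5.11 to 15.1 CPM. In CCND2mut 7 of 7 tested were lower than in Vec, and 0 were called against CCND2wt. The 8 mast cell and basophil genes summed to 7041 to 9541, 10676 to 11398 and 1580 to 14365 CPM. In each CCND2 group 3 of 8 were higher than in Vec. In CCND2mut against CCND2wt 0 rose and 2 fell. The 7 megakaryocyte genes summed to 345 to 434, 326 to 339 and 30.1 to 80.2 CPM. In CCND2mut 1 of 5 tested was higher and 3 lower than in Vec, and 1 higher and 2 lower than in CCND2wt. In CCND2wt against Vec, 2 of 8 stem and progenitor, 3 of 8 monocyte and 4 of 7 B cell genes were lower and 0 higher. There 1 of 10 neutrophil genes was lower and 0 higher, and 0 erythroid or megakaryocyte genes were called. The nuclear RNAs Malat1 and Neat1 fell by 1.43 and 1.68 in CCND2mut against Vec (edgeR adjusted p = 0.00822 and 0.000343). The part of these differences in the mitochondrial values was not tested. With haemoglobin and immunoglobulin genes left out, the calls among the members numbered 2, 6 and 12, as before. The 2 libraries richest in neutrophil genes were Vec 1 and CCND2mut 1, and without both of them 12 members were called in CCND2mut against CCND2wt and 3 in CCND2mut against Vec, where 50.5% and 53.4% of all genes were called.

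Of the 7 pseudogenes on chromosome 1, Gm29216 and Gm10925 rose in CCND2mut against CCND2wt (0.86, SE 0.226, edgeR adjusted p = 0.0135, and 0.79, SE 0.223, edgeR adjusted p = 0.0187). These calls were lost without CCND2wt 2 or CCND2wt 4, and that of Gm10925 also without CCND2wt 3 or CCND2mut 2 (adjusted p up to 0.0542 and 0.0652). The genes they copy in part or whole, mt-Co1 and mt-Atp6, rose in the same comparison. mt-Co2, mt-Nd3 and mt-Nd4 rose there too, while Gm28661, Gm28438 and Gm28439, which copy them, were not called (edgeR adjusted p = 0.127, 0.4595 and 0.0668). These pseudogenes had log2 fold changes of 0.41, 0.41 and 0.71, against 0.57, 1.74 and 0.75 for mt-Co2, mt-Nd3 and mt-Nd4. Whether the changes of gene and copy differ was not tested. None of the 7 was called in the other 2 comparisons.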

How the data were processed

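The authors deposited raw read counts per gene for 9 libraries. Per the submitters' processing notes, the tools were CASAVA 1.8, fastp, HISAT2 2.0.5 (mm10), featureCounts 1.5.0-p3 and DESeq2 1.20.0. Per the labels' protocols, RNA came from TRIzol extraction and the library kit was NEBNext Ultra. The sources used here name no annotation release, strand setting or treatment of multi-mapping reads. Columns were matched to samples by their labels.

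Genes were filtered with filterByExpr (15660 left), scaled by TMM and fitted over all 9 libraries by group in edgeR 4.0.16, in R 4.3.3 beside limma 3.58.1, with 6 residual degrees of freedom, Benjamini-Hochberg adjustment over all tested genes and a threshold of 0.05. Shares were compared by exact permutation (SciPy 1.17.1). Wilson intervals used 95% confidence. Pseudogenes were paired with mitochondrial genes by position, and pairs of libraries were compared by chi-square over genes with 20 or more counts summed. The edgeR step was first tested on simulated data. The alternatives were RLE factors, no TMM factors, scaling on nuclear genes, other filters, DESeq2 1.42.0, limma-voom, fits of the compared groups alone, a replicate block, leaving out each library, leaving out Vec 1 with CCND2mut 1, summing CCND2wt, dropping haemoglobin and immunoglobulin genes, and adding pseudogene counts to the genes they copy. All members with a read were eligible to be named, with 5 tRNAs, and of each list of nuclear genes up to 3 with the smallest adjusted p per comparison. The members and lists were chosen with earlier results of these data known.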

Additional observations from a re-analysis of the deposited data

How the results depend on the processing

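The calls depended on how the libraries were used, scaled and filtered. In CCND2mut against CCND2wt (12 called, with 47% of all genes), the count was 8 with no TMM factors (45.2%). It was 10 with no filter on low counts (22%) and 9 of 15 tested at a mean of at least 5 CPM (52.1%). The median log2 fold change over the 13 mRNAs was 0.75 in the main fit and 0.59 with no TMM factors. With the CCND2wt libraries summed to 1 sample this median was 0.73. In CCND2mut against Vec (6 called, with 51.8% of all genes), the count was 1 with only the 2 groups compared (41.2%). It was 3 with Vec 1 and CCND2mut 1 both left out (53.4%). In CCND2wt against Vec (2 called, with 18.8% of all genes), it was 1 with no filter on low counts (7.7%) and 6 in DESeq2 (27.5%). At a mean of at least 5 CPM it was 0 (21%), and the leucine tRNAs were not tested there. When each library was left out in turn, 34.6% to 48.4%, 43.9% to 50.6% and 6.21% to 23.4% of all genes were called. The counts of members ranged from 8 to 13, 2 to 8 and 0 to 3. With a replicate block they were 8, 1 and 0, where 38.6%, 43.1% and 10.4% of all genes were called. The labels do not pair the numbers, and same-numbered libraries had correlations of -0.073 to 0.187 in their deviations from the group means, so the numbers were not taken as pairs.

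With each library left out, the difference in the share of counts on chromosome MT ranged from -0.325 to -0.0781 points (CCND2wt against Vec), 0.125 to 0.372 (CCND2mut against Vec) and 0.430 to 0.471 (CCND2mut against CCND2wt). Turns of sign came in the tRNA share, at -0.0198 to 0.0124 points for CCND2wt against Vec and -0.0292 to 0.00234 for CCND2mut against CCND2wt, and in the minus-strand share, at -0.0869 to 0.266 for CCND2wt against Vec.

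Among gene fold changes (log2), only genes that were not called turned sign, and the cause was not tested. With 1 library left out, CCND2wt against Vec ranged from -0.10 to 0.10 for mt-Tc and -0.39 to 0.49 for mt-Nd4l. CCND2mut against Vec ranged from -0.25 to 0.79 for mt-Tl1, -0.36 to 0.063 for mt-Nd1, -0.13 to 0.19 for mt-Nd2, -0.15 to 0.20 for mt-Co2, -0.11 to 0.21 for mt-Atp6, -0.023 to 0.38 for mt-Co3, -0.30 to 0.34 for mt-Tl2 and -0.36 to 0.046 for mt-Tp. CCND2mut against CCND2wt ranged from -0.43 to 0.21 for mt-Rnr1 and -0.52 to 0.21 for mt-Rnr2. With the replicate block the turned values were -0.002 for mt-Tc (CCND2wt against Vec), -0.0084, -0.067 and -0.12 for mt-Nd2, mt-Co2 and mt-Tl2 (CCND2mut against Vec), and -0.094 for mt-Tp (CCND2mut against CCND2wt). At 5 CPM they were -0.0067 for mt-Tc, -0.036 for mt-Nd2 and -0.036 for mt-Co2. With no TMM factors they were -0.015 for mt-Nd2, -0.021 for mt-Co2 and -0.023 for mt-Tp. With Vec 1 and CCND2mut 1 both left out they were -0.052 for mt-Nd4l, -0.54 for mt-Tl1, -0.24 for mt-Nd2 and -0.047 for mt-Atp6, and with only 2 groups -0.0019 for mt-Co2. Of all fits of called members, 332 kept the call and 102 lost it with the same direction.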
